A study of Macaca mulatta with 34 samples.

Results

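The receptors that detect RNA and DNA in the endosome and cytosol, together with the chaperone and adaptor that the endosomal receptors need, were followed in the deep cerebellar nuclei (DCN) of rhesus macaques. The set is a list of gene symbols, drawn up with earlier results of these data known. It holds 10 symbols (TLR3, TLR7, TLR8, TLR9, IFIH1, DHX58, AIM2, IFI16, UNC93B1 and MYD88), of which 9 matched an Ensembl macaque identifier among the 34847 identifiers in the tables, 24009 of them with a symbol. IFIH1, which encodes the RNA helicase MDA5, is not analysed here. The values are read counts per gene in 22 DCN libraries of total RNA, and levels are given as CPM (counts scaled to a common library size) after TMM scaling within each study.

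The DCN are the output nuclei of the cerebellum. The libraries came from macaques that received a vector or a control by MRI-guided injection into these nuclei. The series asked what caused the toxicity seen after an adeno-associated virus (AAV) vector for RNA interference, and which immune responses other vector cargoes produced. In Study 1, 6 animals received AAV.miS1, an AAV2/1 vector whose cargo is an artificial microRNA directed at ATXN1, and 4 animals received vehicle. In Study 2 there were 4 groups of 3 animals. By their names, StufferOnly vectors carried stuffer (filler) DNA alone and miSCA7Stuffer vectors a miSCA7 cassette with stuffer, and intmiS1 vectors carried miS1 in another configuration. Empty capsids were the control of Study 2, so its control animals also received viral capsid, whereas those of Study 1 did not. The labels give neither the ages of the animals nor the interval between injection and sampling. The animal identifiers in the labels differ between the replicates of each DCN group.

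Endosomal Toll-like receptors read nucleic acid that a cell has taken up. TLR3 binds double-stranded RNA, TLR7 and TLR8 bind fragments of single-stranded RNA, and TLR9 binds DNA rich in unmethylated CpG. UNC93B1 escorts these receptors from the endoplasmic reticulum to the endosome, and MYD88 passes on the signal of TLR7, TLR8 and TLR9, whereas TLR3 signals through TICAM1. In the cytosol, DHX58 (LGP2) is the helicase that tunes sensing by RIG-I and MDA5, AIM2 assembles an inflammasome on double-stranded DNA, and IFI16 senses DNA in the nucleus and cytosol. In the brain, microglia express several of these receptors, and monocytes, macrophages and B cells bring them in from the blood.

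Each library of Study 1 held 2049685 to 4810852 counts in genes, apart from vehicle replicate 2 with 87741, in which 1 count is worth about 10.4 CPM after scaling. The featureCounts libraries of Study 2 held 20978241 to 39792653, and the 2 intmiS1 libraries counted with STAR held 4858179 and 5169866. Markers of DCN projection neurons (6 genes) summed to between 756 and 3873 CPM over the 22 libraries. Those of oligodendrocytes (4 genes) summed to at least 10687 CPM, so both marker lists had reads in all libraries. The neuron list holds SPP1, which fell in intmiS1 against StufferOnly while the other 5 genes went up. The neuron sum thus mixes genes that moved apart. The library miSCA7Stuffer replicate 1 stood apart from its label. Reads on the most counted vector feature came to 1.64 RPM (scaled to library size like CPM) in miSCA7Stuffer replicate 1, to 349 and 257 RPM in replicates 2 and 3, and to at most 0.351 RPM in the empty capsid libraries, so results for miSCA7Stuffer are given with and without it. Vector reads were also few in some AAV.miS1 libraries, at 7.48, 67.8, 17.1, 20.4, 2.37 and 4.88 RPM in replicates 1 to 6, against at most 0.881 RPM in the vehicle libraries. AAV.miS1 replicate 5, with the fewest (7 counts), was also the lowest of its group for TLR8 and UNC93B1. Vector reads came to 350, 625 and 248 RPM in StufferOnly replicates 1 to 3 and to 568, 648 and 44.6 RPM in intmiS1 replicates 1 to 3. The most counted vector feature of intmiS1 replicate 3 was not that of replicates 1 and 2, so these values are not alike. In all AAV.miS1, miSCA7Stuffer and StufferOnly libraries the most counted feature was GpKFBextmU6miS1newStfr. Its name holds miS1, which the names of the 2 stuffer groups do not, so these values need not count each group's own cargo. In Study 1 over 15% of reads were unmapped in AAV.miS1 replicates 5 and 6 and in vehicle replicates 2, 3 and 4, and under 15% in the other 5 libraries, so that this share and the group partly coincide. In bulk tissue, more cells of a type and more RNA per cell cannot be told apart.

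Most of these genes were higher after AAV.miS1 than after vehicle and higher after StufferOnly than after empty capsid, and none passed the test between intmiS1 and empty capsid. With edgeR's quasi-likelihood F test and a Benjamini-Hochberg adjusted p under 0.05 over all genes, 5 of the 8 members that could be tested rose with AAV.miS1 (UNC93B1, TLR8, AIM2, DHX58 and IFI16) and none fell, where 7.22% of the 13383 genes tested rose. The same 5 genes and TLR9 rose with StufferOnly, 6 of 9 members tested, where 11.6% of 20882 genes rose. Of the genes called with StufferOnly, 75.3% were higher with edgeR and 63.6% with DESeq2. The median log2 fold change of the members was 2.15 with AAV.miS1 and 1.61 with StufferOnly, where the median of all genes tested was 0.02 in both comparisons. TLR3 and TLR7 passed the test in neither comparison. MYD88 passed it in neither, with an adjusted p of 0.0788 for AAV.miS1 and 0.059 for StufferOnly, and passed in both with DESeq2 (adjusted p 0.0342 and 0.0138).

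**Figure D1:**
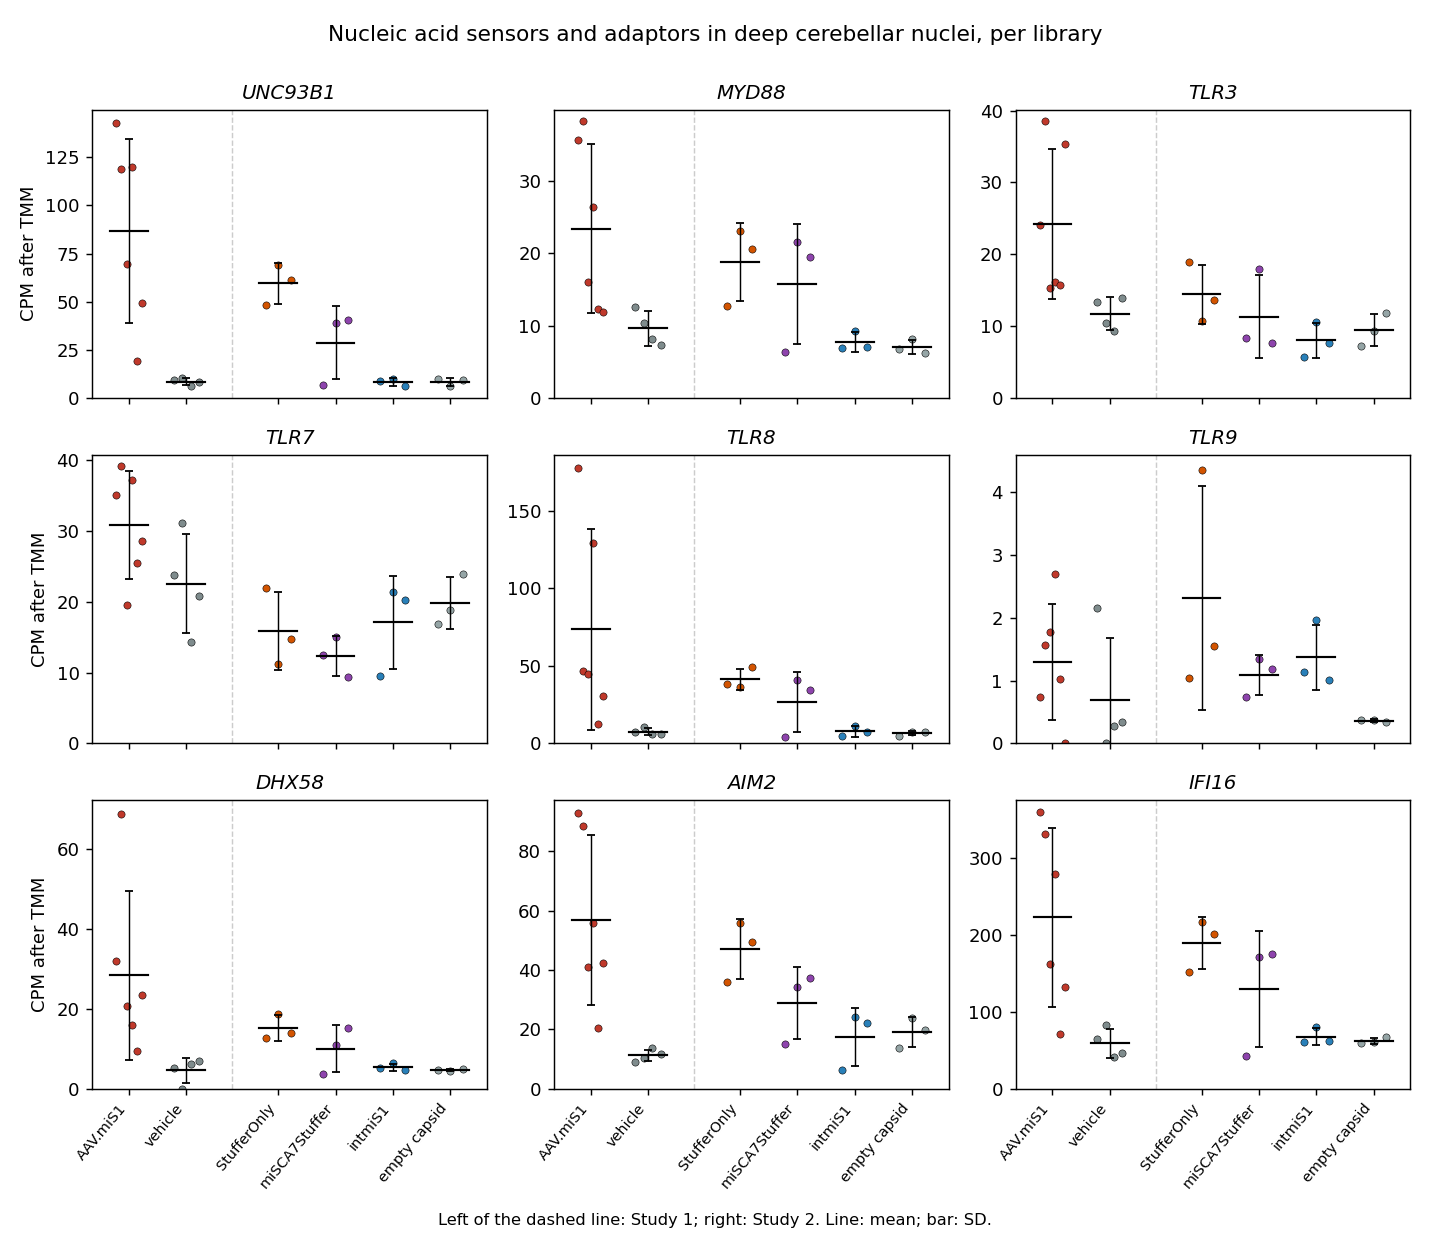
CPM after TMM of the 9 members in each of the 22 libraries (1 point per library), with the mean (line) and SD (bar) of each group; each panel has its own linear axis from 0. UNC93B1 lies at 48.1 to 69.2 CPM in the StufferOnly libraries and at 6.13 to 9.69 CPM in the empty capsid libraries, TLR7 overlaps between the groups of both pairs, and miSCA7Stuffer replicate 1 lies well below the other two libraries of its group in most panels.

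These calls depended on single libraries, while the log2 fold changes of the called members kept their sign. With 1 library left out, UNC93B1 ranged from 3.26 to 3.66 for AAV.miS1 and from 2.53 to 2.96 for StufferOnly. In the same order, TLR8 ranged from 3.05 to 3.74 and 2.46 to 2.73, and DHX58 from 1.78 to 2.43 and 1.51 to 1.81. AIM2 ranged from 2.12 to 2.49 and 1.11 to 1.47, and IFI16 from 1.87 to 2.22 and 1.47 to 1.74. TLR9, called with StufferOnly, ranged from 1.85 to 3.02. For AAV.miS1 no member was called once vehicle replicate 1, 2, 3 or 4 or AAV.miS1 replicate 4 was left out. With single libraries left out, 6 to 8 of the 8 members had an unadjusted p under 0.05, as did 2583 to 4853 of all genes. With all libraries, 3592 of 13383 genes had such a p in either direction. Between 0 and 2300 genes were called when single libraries were left out. For StufferOnly no member was called without empty capsid replicate 1, 2 or 3. None was called without StufferOnly replicate 2 or 3 either, and 7 of 9 had an unadjusted p under 0.05 in these refits. Without StufferOnly replicate 1, 3 were called (TLR9, AIM2 and UNC93B1). Over all refits with 1 library left out, 5108 to 6871 genes had an unadjusted p under 0.05 and 0 to 2593 genes were called. Within the 5 Study 1 libraries with over 15% unmapped reads, UNC93B1 alone was called (log2 fold change 2.21, adjusted p 0.0327), and TLR8, AIM2, DHX58 and IFI16 had log2 fold changes of 1.82, 1.31, 1.34 and 1.13. Of the 5 libraries with under 15%, 1 is a vehicle library, assumed to vary like the AAV.miS1 libraries, so only effect sizes are given here. The log2 fold changes there were 3.62 for UNC93B1, 3.75 for TLR8, 2.93 for AIM2, 2.71 for DHX58 and 2.13 for IFI16. With the set as a covariate, UNC93B1 was the member called (log2 fold change 2.78, adjusted p 0.0294).

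**Figure D2:**
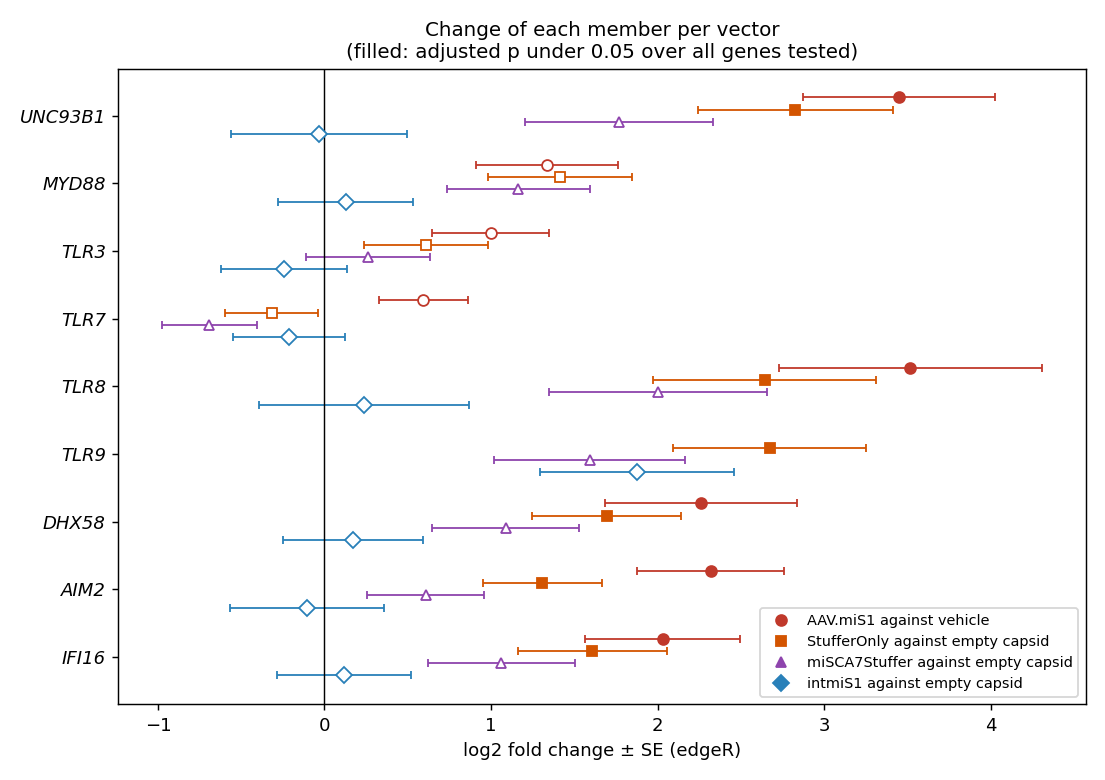
Log2 fold change of each member against its own study's control, with its standard error, for the 4 vectors; filled symbols have an adjusted p under 0.05 over all genes tested. The AAV.miS1 and StufferOnly symbols of UNC93B1 and TLR8 lie between 2.64 and 3.52, and the intmiS1 symbols of all members but TLR9 lie between -0.24 and 0.24.

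Among the endosomal RNA receptors, TLR8 rose in both studies and its relative TLR7 passed no test. TLR8 ranged from 12.3 to 177 CPM with a median of 45.8 CPM in the 6 AAV.miS1 libraries, and was 7.36, 10.4, 5.91 and 5.64 CPM in the vehicle libraries. It was 38.3, 36.2 and 49.0 CPM in the StufferOnly libraries, against 4.90, 7.53 and 7.37 CPM in the empty capsid libraries. As measured, every AAV.miS1 library exceeded every vehicle library, and every StufferOnly library exceeded every empty capsid library. The 10.4 CPM of vehicle replicate 2 rest on 1 count. The log2 fold change was 3.52 ± 0.79 for AAV.miS1 (SE, adjusted p 0.0307) and 2.64 ± 0.67 for StufferOnly (adjusted p 0.0338).

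TLR7 ranged from 19.6 to 39.3 CPM with a median of 31.9 CPM after AAV.miS1, and was 23.8, 31.2, 14.3 and 20.9 CPM after vehicle. It was 21.96, 11.1 and 14.7 CPM after StufferOnly and 12.5, 15.004 and 9.32 CPM after miSCA7Stuffer, against 16.8, 18.8 and 24.0 CPM after empty capsid. The AAV.miS1 and vehicle ranges overlapped, as did those of StufferOnly and empty capsid, while the 3 miSCA7Stuffer libraries all lay below the empty capsid libraries, as for 12.7% of genes. Log2 fold changes of TLR7 were 0.59 ± 0.26 for AAV.miS1 (adjusted p 0.178), -0.32 ± 0.28 for StufferOnly (adjusted p 0.458) and -0.69 ± 0.28 for miSCA7Stuffer (adjusted p 0.195).

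TLR7 and TLR8 lie next to each other on the X chromosome in the RefSeq annotation of the T2T-MMU8v2.0 assembly, and the ratio of their counts within a library does not depend on scaling. This ratio was looked at after the levels were known and is given as a description. TLR8 had 5.05, 1.19, 2.29, 3.48, 0.48 and 1.07 counts per TLR7 count in the AAV.miS1 libraries, against 0.31, 0.33, 0.41 and 0.27 in the vehicle libraries. In Study 2 the ratio was 1.75, 3.25 and 3.33 after StufferOnly, 0.35, 2.72 and 3.67 after miSCA7Stuffer, and 0.46, 0.53 and 0.37 after intmiS1, against 0.29, 0.40 and 0.31 after empty capsid. TLR7 counts thus outnumbered TLR8 counts in all 7 control libraries, and the order was turned round in 5 of the 6 AAV.miS1, all 3 StufferOnly and 2 of the 3 miSCA7Stuffer libraries. The ratio of vehicle replicate 2 rests on 1 TLR8 count and 3 TLR7 counts. The ratio is of counts and not per length, so it does not say which transcript is the more abundant.

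**Figure D3:**
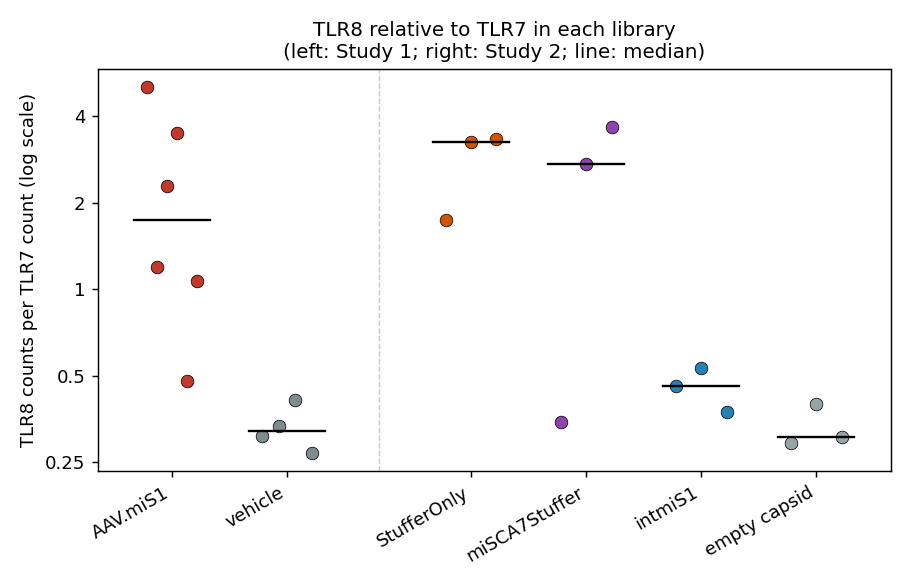
TLR8 counts per TLR7 count in each library (log scale), with the median of each group as a line. The control libraries lie between 0.27 and 0.41, the StufferOnly libraries between 1.75 and 3.33, and miSCA7Stuffer replicate 1 (0.35) lies among the controls.

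TLR3, the receptor for double-stranded RNA, was higher in each of the 6 AAV.miS1 libraries (15.3 to 38.5 CPM, median 20.1 CPM) than in any vehicle library (13.4, 10.4, 9.28 and 13.9 CPM). The difference did not pass the test (log2 fold change 1.00 ± 0.35, adjusted p 0.105). In all, 5 members (TLR3, TLR8, DHX58, AIM2 and UNC93B1) had no AAV.miS1 library at or below any vehicle library, as held for 7.47% of all genes tested. In vehicle replicate 2, however, DHX58 had 0 counts and each of the others 1 count, so this separation depends on single counts there. TLR3 was 18.9, 10.8 and 13.6 CPM after StufferOnly, 8.36, 18.0 and 7.59 CPM after miSCA7Stuffer and 5.72, 10.6 and 7.71 CPM after intmiS1, against 7.27, 9.33 and 11.8 CPM after empty capsid. All 3 of these groups overlapped the empty capsid libraries, with adjusted p-values of 0.288, 0.685 and 0.879 in the order given.

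TLR9, the receptor for CpG DNA, had few reads. In Study 1 it had 0 to 10 counts in the AAV.miS1 libraries and 0 to 5 in the vehicle libraries and was not tested there. In Study 2 it had 35, 94 and 50 counts after StufferOnly, 24, 38 and 26 after miSCA7Stuffer and 6, 10 and 32 after intmiS1, against 14, 10 and 10 after empty capsid. Scaled to library size, these were 1.05, 4.37 and 1.55 CPM after StufferOnly, 0.733, 1.34 and 1.19 CPM after miSCA7Stuffer and 1.14, 1.97 and 1.01 CPM after intmiS1, against 0.365, 0.376 and 0.332 CPM after empty capsid. All 9 vector libraries of Study 2 thus lay above all 3 empty capsid libraries, a pattern noticed after the values were seen. This held for 2.33% of the 21501 genes tested over all Study 2 libraries. Taken group by group, all 3 libraries lay above the empty capsid libraries for 26.8% of genes with StufferOnly, 12.2% with miSCA7Stuffer and 9.51% with intmiS1. The rise after StufferOnly passed the test (log2 fold change 2.67 ± 0.58, adjusted p 0.0236), and the values after miSCA7Stuffer (1.59 ± 0.57, adjusted p 0.164) and intmiS1 (1.88 ± 0.58, adjusted p 0.576) did not. StufferOnly replicate 2 was the highest library, and without it the log2 fold change was 1.85 and did not pass the test. Markers of B and plasma cells (6 genes), cells that carry TLR9, summed to 345 to 1108 CPM after StufferOnly. Replicates 1, 2 and 3 had sums of 1.77, 190 and 482 CPM after miSCA7Stuffer and 3.43, 156 and 2.42 CPM after intmiS1. The empty capsid libraries had sums of 1.798 to 2.66 CPM. The part of B and plasma cells in the TLR9 values was not tested. CD79B was at 0 in all intmiS1 and all empty capsid libraries. Markers of plasmacytoid dendritic cells (4 genes), which also carry TLR9, summed to 195 to 691 CPM after StufferOnly, 160 to 372 CPM after miSCA7Stuffer and 138 to 180 CPM after intmiS1, against 127 to 130 CPM after empty capsid. All 9 vector libraries thus lay above the empty capsid libraries here too. Of these genes JCHAIN, which plasma cells also express, and GZMB, which cytotoxic lymphocytes also express, rose with StufferOnly and with AAV.miS1 (log2 fold changes of JCHAIN 7.92 and 6.77; GZMB was nearly unread in the controls), TCF4 did not pass in either comparison, and CLEC4C, which defines these cells, was at 0 in every library. Their part in the TLR9 values was not tested.

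DHX58, the cytosolic RNA helicase LGP2, ranged from 9.53 to 68.9 CPM with a median of 22.02 CPM after AAV.miS1, and was 5.19, 0, 6.19 and 6.96 CPM after vehicle. The 0 belongs to vehicle replicate 2, the shallow library, where 1 count would have been worth more than the 9.53 CPM of AAV.miS1 replicate 5. DHX58 was 12.6, 18.8 and 14.0 CPM after StufferOnly, against 4.66, 4.44 and 4.91 CPM after empty capsid. As measured, the groups did not overlap in either study. DHX58 rose by a log2 fold change of 2.26 ± 0.58 with AAV.miS1 (adjusted p 0.0408) and of 1.69 ± 0.45 with StufferOnly (adjusted p 0.0377).

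The DNA sensors AIM2 and IFI16, which lie next to each other on chromosome 1 in the same annotation, rose in both studies. AIM2 ranged from 20.4 to 92.9 CPM with a median of 49.1 CPM after AAV.miS1, and was 9.09, 10.4, 13.5 and 11.6 CPM after vehicle. It was 35.9, 55.7 and 49.5 CPM after StufferOnly, against 13.6, 23.6 and 19.7 CPM after empty capsid. Neither pair of groups overlapped as measured, with 1 count in vehicle replicate 2. The log2 fold changes were 2.32 ± 0.44 (adjusted p 0.0275) and 1.31 ± 0.36 (adjusted p 0.0417). AIM2 reads depend on how strands are counted: over the 10 Study 1 libraries the unstranded column held 1173 and the reverse column, used here, 1298. The unstranded total of AIM2 was thus 90.4% of its reverse total, while no other member had an unstranded total below its reverse total.

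IFI16 ranged from 71.1 to 359 CPM with a median of 221 CPM after AAV.miS1, and was 64.5, 83.1, 40.8 and 46.7 CPM after vehicle. AAV.miS1 replicate 5, with 71.1 CPM, lay below vehicle replicate 2, whose 83.1 CPM rest on 8 counts. IFI16 was 151, 216 and 201 CPM after StufferOnly, against 59.2, 60.4 and 67.0 CPM after empty capsid, with no overlap. IFI16 rose by log2 fold changes of 2.03 ± 0.46 for AAV.miS1 (adjusted p 0.0313) and 1.61 ± 0.45 for StufferOnly (adjusted p 0.0447).

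UNC93B1, the chaperone of the endosomal receptors, had the smallest p of the members in both studies. It ranged from 19.4 to 143 CPM with a median of 94.3 CPM after AAV.miS1, and was 9.09, 10.4, 6.19 and 8.29 CPM after vehicle. It was 48.1, 69.2 and 61.2 CPM after StufferOnly, against 9.69, 6.13 and 9.29 CPM after empty capsid. The groups did not overlap in either study as measured, and the lowest AAV.miS1 library, replicate 5, lay above the highest vehicle library. That vehicle library is replicate 2, with 1 UNC93B1 count. UNC93B1 rose by a log2 fold change of 3.45 ± 0.58 with AAV.miS1 (adjusted p 0.0275) and of 2.83 ± 0.58 with StufferOnly (adjusted p 0.0216). In the human genome UNC93B1 has near-identical pseudogene copies, and whether reads are shared with such copies in the macaque was not tested.

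MYD88, the adaptor of TLR7, TLR8 and TLR9, ranged from 11.9 to 38.2 CPM with a median of 21.2 CPM after AAV.miS1, and was 12.6, 10.4, 8.16 and 7.29 CPM after vehicle. It was 12.7, 23.1 and 20.5 CPM after StufferOnly, against 6.70, 8.20 and 6.24 CPM after empty capsid. AAV.miS1 replicates 5 and 6 lay just below vehicle replicate 1, and the Study 2 groups did not overlap. Its log2 fold changes were 1.34 ± 0.43 and 1.41 ± 0.43. With MYD88 counted, 7 members were higher in every StufferOnly library than in any empty capsid library, a separation shown by 26.8% of all genes tested.

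With miSCA7Stuffer, whose 3 libraries disagreed, no member passed the edgeR test against empty capsid, where 0.00479% of genes rose and 0.0% fell. At an unadjusted p under 0.05 there were 7 members, 6 higher (UNC93B1, TLR8, TLR9, MYD88, DHX58 and IFI16) and 1 lower (TLR7), where 14.5% of all genes were higher and 8.55% lower at that threshold, and DESeq2 called 2 (TLR8 and UNC93B1). UNC93B1 was 6.69, 38.8 and 40.3 CPM, TLR8 was 4.33, 40.8 and 34.2 CPM and IFI16 was 43.0, 171 and 175 CPM in miSCA7Stuffer replicates 1, 2 and 3. Replicate 1, the library with few vector reads, lay within or below the empty capsid range for these 3 genes, and replicates 2 and 3 lay far above it. AIM2 (15.1, 34.1 and 37.4 CPM), DHX58 (3.63, 10.9 and 15.3 CPM) and MYD88 (6.29, 21.6 and 19.5 CPM) showed the same order. Without replicate 1, 7 members were called, all but TLR3 and TLR7, among 6983 genes called in either direction. With all libraries 20882 genes were tested. The log2 fold changes were then 2.48 for TLR8, 2.20 for UNC93B1, 1.78 for TLR9, 1.51 for MYD88, 1.46 for DHX58, 1.44 for IFI16 and 0.88 for AIM2. Against StufferOnly, miSCA7Stuffer gave no called member and none at an unadjusted p under 0.05, where 0.0% of all genes were called and DESeq2 called no member. The log2 fold changes ran from -1.08 for TLR9 to -0.25 for MYD88, and UNC93B1 (-1.06 ± 0.55) was lower in each miSCA7Stuffer library than in any StufferOnly library, as were 8.42% of genes.

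With intmiS1, no member differed from empty capsid by the test. UNC93B1 was 8.58, 10.0 and 6.32 CPM, TLR8 was 4.39, 11.4 and 7.55 CPM, IFI16 was 61.2, 79.9 and 61.8 CPM and DHX58 was 5.15, 6.29 and 4.53 CPM in the intmiS1 libraries. Each of these ranges overlapped that of empty capsid given above. MYD88 was 6.86, 9.25 and 7.08 CPM, AIM2 was 6.29, 24.0 and 22.2 CPM, and TLR7 was 9.53, 21.4 and 20.3 CPM. The edgeR test called 0 of 9 members against empty capsid, where 0.0% of 21501 genes were called, 1 member (TLR9) had an unadjusted p under 0.05, as did 8.52% of genes, and DESeq2 called 0. The standard errors of the log2 fold changes were 0.34 to 0.63. TLR9, at 1.88 ± 0.58, was not called (edgeR, adjusted p 0.576), so changes well beyond the standard error could also have gone uncalled. AIM2 and UNC93B1, with log2 fold changes of -0.11 and -0.03, turned to 0.12 and 0.02 with the reverse strand column of the 2 intmiS1 libraries counted with STAR, and UNC93B1 to 0.06 without TMM scaling.

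Set against StufferOnly, intmiS1 had lower levels of 4 members (UNC93B1, TLR8, DHX58 and IFI16), where 8.46% of genes were lower. The log2 fold changes were -2.86 ± 0.55 for UNC93B1 (adjusted p 0.0143), -2.41 ± 0.65 for TLR8 (adjusted p 0.0387), -1.52 ± 0.42 for DHX58 (adjusted p 0.0424) and -1.49 ± 0.41 for IFI16 (adjusted p 0.0411). AIM2 (-1.42, adjusted p 0.0729) and MYD88 (-1.29, adjusted p 0.0646) did not pass with edgeR and passed with DESeq2 (adjusted p 0.0251 and 0.0253). In all, 7 members were lower in every intmiS1 library than in any StufferOnly library, as were 22.6% of genes. DHX58 had an adjusted p of 0.0506 without TMM scaling. No member was called without intmiS1 replicate 1 or 2 or without StufferOnly replicate 2. Without intmiS1 replicate 3 or without StufferOnly replicate 1 or 3, 1 was called. Over these refits 132 to 3833 genes were called. The 2 STAR libraries are intmiS1 replicates 1 and 2. With the featureCounts library alone, intmiS1 is 1 library assumed to vary like those of the other groups, and no member was called. The log2 fold changes were then -3.23 for UNC93B1, -2.44 for TLR8, -1.73 for DHX58 and -1.61 for IFI16.

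The difference between the AAV.miS1 effect in Study 1 and a vector's effect in Study 2 was tested in a model of all 22 libraries. Study, control and counting route change together between these effects and cannot be told apart. AAV.miS1 minus StufferOnly gave 0 called members of 9, where 0.0% of 16537 genes were called. TLR7 alone had an unadjusted p under 0.05, as did 2.81% of genes, with a difference of 0.94 ± 0.43 log2 units. AAV.miS1 minus intmiS1 also gave 0 called members with edgeR, against 0.0% of genes, while 6 of 9 had an unadjusted p under 0.05, as did 17.3% of genes. DESeq2 called 3 there: UNC93B1 (difference 3.43, adjusted p 0.00647), AIM2 (2.41, adjusted p 0.0337) and TLR8 (3.22, adjusted p 0.0495). Without AAV.miS1 replicate 5, edgeR called 2 members and without intmiS1 replicate 3 it called 1. Over all refits of this difference with 1 library left out, 0 to 872 genes were called.

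Macrophage and monocyte markers were high in the libraries where UNC93B1 and TLR8 were high. The 8 macrophage and monocyte markers summed to 144 to 4772 CPM after AAV.miS1, against 44.8 to 249 CPM after vehicle. They summed to 817 to 1839 CPM after StufferOnly, to 48.3, 825 and 867 CPM in miSCA7Stuffer replicates 1, 2 and 3 and to 54.3 to 91.9 CPM after intmiS1, against 52.5 to 53.8 CPM after empty capsid. AAV.miS1 replicates 1 and 4 had the highest sums (4772 and 3267 CPM) and the highest TLR8 levels, and AAV.miS1 replicate 5 had the lowest of its group in both. S100A8 and S100A9, which mark monocytes and neutrophils, were at 0 in all AAV.miS1 and all intmiS1 libraries, S100A9 in all empty capsid libraries, and S100A8 and FCN1 in all vehicle libraries. The 8 microglia markers spanned a narrower range: 856 to 1835 CPM after AAV.miS1 and 657 to 903 CPM after vehicle, and 865 to 1035 CPM after StufferOnly, 498 to 959 CPM after miSCA7Stuffer and 576 to 769 CPM after intmiS1, against 576 to 720 CPM after empty capsid. TMEM119 was at 0 in all intmiS1 libraries. T cell markers (6 genes) summed to 8.51 to 114 CPM after AAV.miS1 and 3.46 to 10.4 CPM after vehicle, and to 14.9 to 64.0 CPM after StufferOnly, against 1.81 to 2.61 CPM after empty capsid. Neutrophil markers (4 genes) summed to 3.40 to 104 CPM after AAV.miS1 and 0.433 to 10.4 CPM after vehicle, and to 16.0 to 34.5 CPM after StufferOnly, against 3.29 to 4.44 CPM after empty capsid. B and plasma cell markers summed to 23.5 to 3650 CPM after AAV.miS1 and 0.332 to 145 CPM after vehicle. For macrophage and monocyte, T cell, neutrophil and B and plasma cell markers, the highest vehicle sum was that of replicate 2. In this shallow library the T cell and neutrophil sums of 10.4 CPM rest on 1 count each. Vehicle replicates 1, 3 and 4 had macrophage and monocyte sums of 53.2, 65.0 and 44.8 CPM. Their B and plasma cell sums were 9.09, 13.2 and 0.332 CPM. Other cell types of the tissue also moved in these comparisons. Markers of DCN projection neurons summed to 756 to 3463 CPM after AAV.miS1 and 2264 to 3536 CPM after vehicle. They summed to 2010 to 3129 CPM after StufferOnly, against 2658 to 3873 CPM after empty capsid. Of these 6 genes, 1 had a positive log2 fold change in each comparison (medians -0.90 and -0.96), and none passed. Oligodendrocyte markers summed to 10687 to 25339 CPM after AAV.miS1 and 23398 to 34467 CPM after vehicle, and to 14843 to 17285 CPM after StufferOnly, against 25391 to 37859 CPM after empty capsid, and 4 of 5 identifiers of these 4 genes fell with StufferOnly. Purkinje cell markers (4 genes) summed to 4.39 to 128 CPM after AAV.miS1 and 83.1 to 234 CPM after vehicle, where 1 fell, and to 34.996 to 57.98 CPM after StufferOnly, against 121 to 141 CPM after empty capsid, where none passed. Endothelial markers (4 genes) summed to 194 to 567 CPM after AAV.miS1 and 171 to 243 CPM after vehicle, where none passed, and to 293 to 416 CPM after StufferOnly, against 93.8 to 157 CPM after empty capsid, where 2 rose. Astrocyte markers (5 genes) summed to 2601 to 24927 CPM after AAV.miS1 and 11461 to 12837 CPM after vehicle. They summed to 5942 to 12864 CPM after StufferOnly, against 9505 to 10113 CPM after empty capsid, and none passed in either comparison. Of these 5 genes, 1 had a positive log2 fold change in each comparison (medians -0.72 and -0.73). The median sum was nevertheless higher after AAV.miS1 (16494 against 11906 CPM) and after StufferOnly (10594 against 9972 CPM). The astrocyte sum thus moved apart from most of its genes. The part of any of these cells in the members' levels was not tested.

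**Figure D4:**
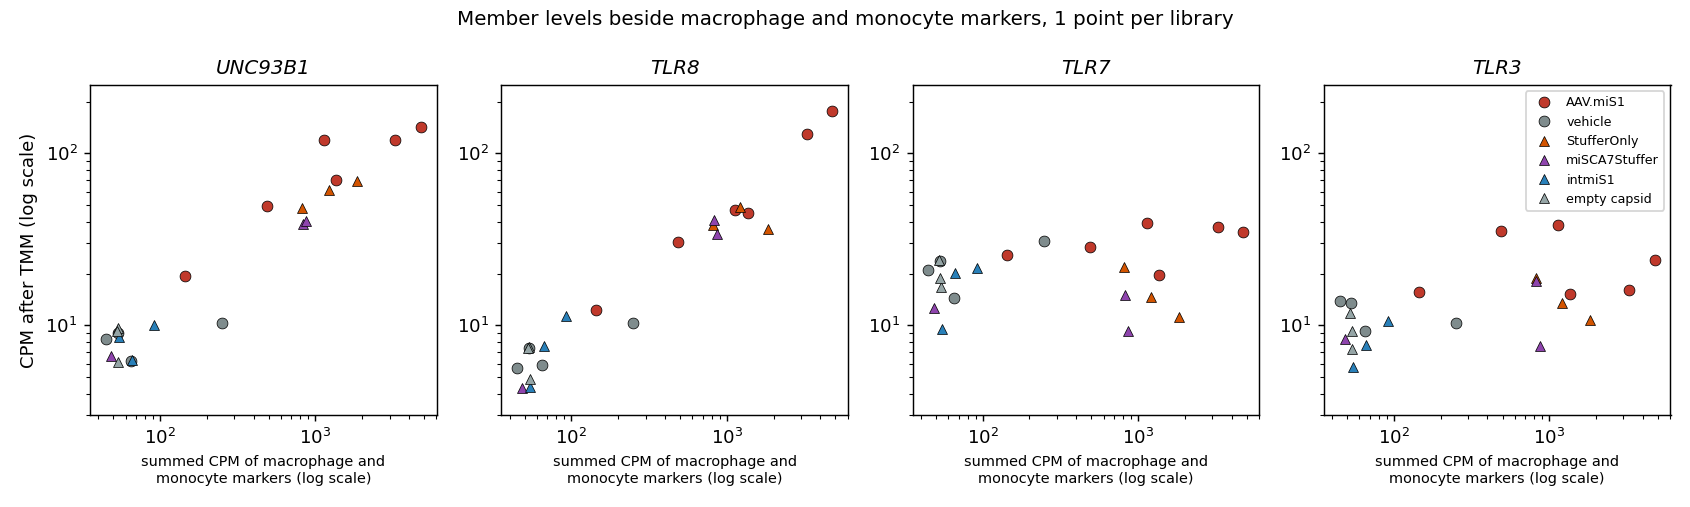
CPM of UNC93B1, TLR8, TLR7 and TLR3 in each library against the summed CPM of 8 macrophage and monocyte markers in the same library (both axes logarithmic; circles Study 1, triangles Study 2). UNC93B1 and TLR8 are high in the libraries with high marker sums, up to 143 and 177 CPM in AAV.miS1 replicate 1, while TLR7 stays between 9.32 and 39.3 CPM over all sums; points share libraries and scaling, and no test was made.

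The genes around these receptors were counted over lists of the pathway. The counts are of genes that passed the edgeR test, where 7.22% of all genes rose with AAV.miS1 and 11.6% with StufferOnly. Of 12 genes that handle endosomal receptors or their ligands, 7 rose with AAV.miS1 and 10 with StufferOnly, with median log2 fold changes of 2.17 and 2.15. They included SLC15A3, an endolysosomal peptide transporter linked to TLR signalling (242 ± 215 CPM after AAV.miS1 and 19.5 ± 7.92 CPM after vehicle, and 196 ± 40.8 CPM after StufferOnly and 24.7 ± 1.98 CPM after empty capsid; SD). Its log2 fold changes were 3.88 and 2.99. The protease CTSB rose by 3.54 with AAV.miS1, and CNPY3, a chaperone of TLRs, by 1.45 and CTSL by 2.13 with StufferOnly. Of 10 transcription factors of the pathway, 5 rose with AAV.miS1 and 8 with StufferOnly, with medians of 1.56 and 1.06. IRF5, which acts downstream of MYD88, averaged 83.1 ± 45.9 CPM after AAV.miS1 and 13.3 ± 3.77 CPM after vehicle, and 82.6 ± 9.20 CPM after StufferOnly and 13.1 ± 1.77 CPM after empty capsid. IRF8, a factor of myeloid cells, rose by 2.41 and 2.12, IRF9 by 1.26 with AAV.miS1 and IRF3 by 1.02 with StufferOnly.

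Of 10 other nucleic acid sensors, 3 rose with AAV.miS1 (OASL by 5.17, OAS2 by 3.78 and ZC3HAV1 by 1.96) and 6 with StufferOnly, among them CGAS, the cytosolic DNA sensor, by 2.12 and RIGI, the RNA helicase RIG-I, by 0.88. OASL was nearly unread in the controls, at 17.4 ± 9.95 CPM after AAV.miS1 and 0.332 ± 0.24 CPM after vehicle, so that its fold change rests on few counts. Of 14 adaptors and kinases, 3 rose with AAV.miS1 and 5 with StufferOnly, with medians of 0.62 and 0.43. IKBKE, a kinase that phosphorylates IRF3 and IRF7, rose by 4.97 (14.7 ± 9.05 CPM after AAV.miS1 and 0.294 ± 0.399 CPM after vehicle, again few counts) and 2.85, and STING1, the adaptor of CGAS, by 3.93 and 3.17. IRAK1, a kinase recruited through MYD88, rose by 1.12 with AAV.miS1, and TICAM1, the adaptor of TLR3, by 1.25 with StufferOnly. Of 5 measured partners of the AIM2 inflammasome, 4 rose with AAV.miS1 and 5 with StufferOnly, with medians of 2.03 and 1.91. GSDMD, the pore-forming protein of pyroptosis, rose by 3.64 and 2.42, and PYCARD, the adaptor ASC that binds AIM2, by 2.63 with StufferOnly.

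Of 7 nucleases and editing enzymes that limit such ligands, 2 rose with AAV.miS1 and 3 with StufferOnly, with medians of 1.1997 and 0.64. DNASE2, the lysosomal DNase, averaged 130 ± 139 CPM after AAV.miS1 and 8.91 ± 6.69 CPM after vehicle, and 194 ± 30.2 CPM after StufferOnly and 10.6 ± 1.45 CPM after empty capsid (log2 fold changes 3.51 and 4.19). SAMHD1, which depletes deoxynucleotides, rose by 1.36 and 0.89. Of the surface TLRs and their co-receptors, 4 of 7 tested rose with AAV.miS1 and 4 of 8 with StufferOnly, TLR2 by 3.20 and 2.46 and CD14 by 3.41 and 2.73. Of 10 interferon targets, 5 rose with AAV.miS1 and 2 with StufferOnly (CXCL10 by 4.65 and MX2 by 2.95). The 2 of 10 with StufferOnly stand beside 11.6% of all genes. No gene of any of these lists fell in either comparison, and none was called in either direction with miSCA7Stuffer or intmiS1 against empty capsid by edgeR. With intmiS1 against StufferOnly, where 8.46% of all genes were lower, 9 of 10 transcription factors, 7 of 12 endosomal handling genes, 5 of 8 surface TLR genes, 4 of 14 adaptors and kinases, 3 of 10 other sensors, 3 of 7 nucleases, 3 of 5 inflammasome partners and 2 of 10 interferon targets were lower and none was higher.

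Over the 6 StufferOnly and miSCA7Stuffer libraries, each taken relative to the empty capsid mean, the genes whose profile lay closest to each member were looked up by the root mean square difference in log2 CPM. For UNC93B1 these were ARHGAP25 and PIK3AP1, 0.06 and 0.09 log2 units away, and for TLR8 ALPK1 and CD86, 0.14 and 0.16 away. P2RY12, a marker of resident microglia, and FIGN lay closest to TLR7, at 0.22 and 0.23. The TLR7 profile ran from -1.07 to 0.16 and that of P2RY12 from -1.15 to -0.09 log2 units over the 6 libraries. The closest genes were PPP1R18 and FUCA2 for AIM2, ATP7A and DOCK11 for IFI16, IER5L and FTH1 for DHX58, MYADM and F11R for MYD88, RGS18 and MLXIPL for TLR3, and VDR and ITGB7 for TLR9. For TLR3, TLR7 and TLR9 the distances (0.22 to 0.29) were larger than for the other members (0.06 to 0.16).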

How the data were processed

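Total RNA from DCN tissue was depleted of ribosomal RNA and made into directional libraries, per the labels' protocols. The authors deposited counts of reads per gene: STAR gene-count tables for the 10 Study 1 libraries and intmiS1 replicates 1 and 2, and featureCounts tables for the other 10, per the file headers in a mode where a read over several genes counts in each. Alignment with STAR 2.6.0c and comparison with DESeq2 are named in the submitters' processing notes. The genome build, annotation and strand setting of featureCounts were not given in the sources used here. Counts were taken from the reverse column in Study 1 and the unstranded column of the 2 STAR intmiS1 tables. Rows that name no gene (63.6% to 72.0% of reads in Study 1 and 68.4% and 71.2% in the 2 STAR intmiS1 tables) stayed out of library sizes.

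All genes were fitted with edgeR 4.0.16 in R 4.3.3 (quasi-likelihood F test, filterByExpr with minimum count 10 and minimum total 15, TMM), with Benjamini-Hochberg adjustment over all genes tested in a comparison and a threshold of 0.05. Study 1 comparisons used its 10 libraries, stuffer comparisons the 9 featureCounts libraries of their groups, and intmiS1 comparisons all 12 of Study 2. Fold changes carry a prior count of 0.125 and the log2 CPM of the profile search one of 2, and standard errors were taken from the F statistic. DESeq2 1.42.0, other scalings, filters, count columns and sample sets were alternatives. The scripts were tested on simulated data. The members and gene lists were chosen with earlier results of these data known. All members are named, and from each list up to 3 genes with the smallest p per comparison. Same-numbered miSCA7Stuffer and StufferOnly libraries deviated together from their group means (correlations 0.27 to 0.56 for all 3 numbers). The labels give no pairing, and with 3 libraries per group such correlations do not establish one. P-values measure the spread between these samples. Symbols came from a name table. Small RNA libraries were not used here.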

Additional observations from a re-analysis of the deposited data

Results flagged for a closer look

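TLR9 in the vehicle group was 2.16 CPM in replicate 1, against 0, 0.281 and 0.332 CPM in replicates 2, 3 and 4, so that replicate 1 stood apart from the other 3 by 0.847 of the group's range. The value rests on 5 counts, and the exact Poisson 95% interval of the unscaled level is 0.715 to 5.14 CPM, which covers counting error only. The 0 in vehicle replicate 2 comes from a library so shallow that 3 counts would be 34.2 CPM. In all, 18 groups of member levels were checked in this way, and chance alone singles out about 1 in 20.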

How the results depend on the processing

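Of the single-member values recomputed under alternatives, 871 kept their direction and their side of the threshold, 99 lost it, 25 crossed it and 32 changed sign, most of these in intmiS1 against empty capsid or in the difference for MYD88; the cause was not tested. Leaving out 1 library at a time gave 0 to 6 members called for AAV.miS1 (0 to 2300 genes), 0 to 3 for StufferOnly (0 to 2593 genes), 0 to 7 for miSCA7Stuffer (0 to 6983 genes) and 0 for intmiS1 (0 to 1852 genes) against their controls. It gave 0 for miSCA7Stuffer (0 to 343 genes) and 0 to 1 for intmiS1 (132 to 3833 genes) against StufferOnly, and 0 (0 genes) and 0 to 2 (0 to 872 genes) for the AAV.miS1 effect minus that of StufferOnly and of intmiS1. DESeq2 called 1786 genes for AAV.miS1, where edgeR called 1004, 5329 for StufferOnly (edgeR 3219), 2339 for miSCA7Stuffer (edgeR 1, members 2), 476 for miSCA7Stuffer against StufferOnly (edgeR 0), 52 for intmiS1 (edgeR 0), 4244 for intmiS1 against StufferOnly (edgeR 2552), and 17 and 400 for the 2 differences (edgeR 0; members 0 and 3). For AAV.miS1 the unmapped-read set gave 148 genes and 1 member as a covariate, 123 genes and 1 member within the libraries over 15%, and 0 genes and 0 members within those under 15%, a set added after seeing the data. Fitting only the 2 groups compared gave 6314 genes for StufferOnly and 0 for miSCA7Stuffer. Without TMM, miSCA7Stuffer gave 6 genes, and the median of all genes moved by 0.12 for it and by -0.19 and -0.11 for the 2 differences. Without a filter, 1 gene was called for miSCA7Stuffer against StufferOnly, and with the unstranded column 1 for AAV.miS1 minus intmiS1. With the featureCounts intmiS1 library alone, 0 members and 0 genes were called against StufferOnly. This setting both leaves 1 library and drops the STAR tables, and the cause was not tested.

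Signs turned in intmiS1 against empty capsid for UNC93B1 (0.0013 with DESeq2, 0.059 without TMM, 0.016 with the reverse column), for AIM2 (0.12 with the reverse column) and, with the featureCounts library alone, for TLR7 (0.031), DHX58 (-0.042), AIM2 (0.23) and IFI16 (-0.0078). Leaving out 1 library, that comparison ranged from -0.21 to 0.15 for UNC93B1, -0.37 to 0.28 for AIM2, -0.39 to 0.067 for TLR7, -0.10 to 0.50 for TLR8, -0.016 to 0.18 for IFI16, and -0.013 to 0.25 for MYD88. The other signs that turned with 1 library left out were TLR3 in miSCA7Stuffer against empty capsid (-0.24 to 0.48), MYD88 in miSCA7Stuffer against StufferOnly (-0.54 to 0.21), TLR7 in intmiS1 against StufferOnly (-0.10 to 0.42), TLR9 in intmiS1 against StufferOnly (-1.13 to 0.030), MYD88 in the AAV.miS1 effect minus the StufferOnly effect (-0.28 to 0.18) and TLR9 in the AAV.miS1 effect minus the intmiS1 effect (-1.72 to 0.18). The replicate number was also fitted as a block, and for miSCA7Stuffer against StufferOnly the block changed no call of a member. Whether equal numbers mark pairs there is not known. Elsewhere in Study 2 the correlations of same-numbered libraries were -0.12 to 0.24. With the replicate number as a block, 7 members were called for StufferOnly, 0 for miSCA7Stuffer, 0 for miSCA7Stuffer against StufferOnly, 0 for intmiS1 and 6 for intmiS1 against StufferOnly. How many of all genes were called in these blocked fits is not given here. Over all alternatives, 0 to 6314 genes were called for StufferOnly and 0 to 4244 for intmiS1 against StufferOnly.

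Depth limits TLR9 in Study 1 and all members in vehicle replicate 2.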
